A study of Mus musculus with 12 samples.

Results

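The 34 genes described here encode proteins of homologous recombination, of the Fanconi pathway, of DNA mismatch repair and of the kinases that signal DNA damage. They form a list of gene names, drawn up with earlier results of these data known, and were read by gene symbol and Ensembl identifier from 55414 gene records. Splenic CD4+ T cells of male BALB/c mice, WT and 18 weeks old, were compared between a group with ligature-induced periodontitis (LIP), in which ligatures had been tied around upper molars, and a control group without ligatures (CTL). The cells were purified by negative selection, so that no antibody was bound to the T cells themselves. RNA was taken either directly after purification (day 0) or after a culture of 2 days (day 2), stimulated by antibodies to TCRbeta and CD28 in the presence of IL-2, and each of the 4 groups held 3 libraries. They are called here by group and sample number, CTL 88, 89 and 94 and LIP 92, 93 and 94 on day 0, and CTL 92, 93 and 97 and LIP 90, 96 and 97 on day 2. The labels name the third culture agent as anti-CD29 for CTL 93 and LIP 96 and as anti-CD30 for both libraries numbered 97, against anti-CD28 in the protocol. Because no cells were cultured without stimulation, the effects of the antibodies, of IL-2 and of time in culture cannot be told apart.

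Homologous recombination repairs a DNA double-strand break by copying an intact sister molecule, which is present only after replication. The MRE11, RAD50 and NBS1 proteins bind the broken ends and, with CtIP, EXO1 and BLM, trim them to single strands. BRCA1 and BARD1, PALB2 and BRCA2 then load a recombinase onto the strand, and its paralogues, RAD52 and the RAD54 proteins assist it. Proteins of the Fanconi pathway release cross-links between DNA strands, through a core complex that attaches ubiquitin to the FANCD2 and FANCI pair. Mismatch repair corrects errors of replication, and ATM, ATR, CHEK1 and CHEK2 are kinases that report damage and stalled forks to the cell cycle. In T cells, which rest in the blood and spleen and divide quickly once their receptor is engaged, many of these genes are known to be transcribed together with replication.

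Total counts ranged from 6249018 to 7845676 on day 0 and from 8691699 to 12866718 on day 2. Levels are given as CPM, the counts scaled to a common library size, after TMM normalization, a scaling that sets the bulk of genes equal between libraries. Summed over 7 markers of CD4+ T cells, the level was 2065 to 2322 CPM on day 0 and 3510 to 3925 CPM on day 2, and the CD8 genes Cd8a and Cd8b1 together were at 4.43 to 6.74 CPM in all libraries but LIP 96 and LIP 97 on day 2, which had 13.2 and 9.20 CPM. The 8 B cell markers summed to 6.14 to 12.5 CPM on day 0, to 4.65, 5.26 and 23.1 CPM in CTL 92, 93 and 97 on day 2, and to 2.96, 37.9 and 35.9 CPM in LIP 90, 96 and 97 on day 2. The 10 myeloid markers summed to 2.51 to 15.2 CPM, with S100a8 and S100a9 at 0 in every library, and 5 markers of NK cells to 5.30 to 14.8 CPM on day 0 and, on day 2, to 0.955 to 1.48 CPM in CTL and LIP 90 and 3.46 and 2.46 CPM in LIP 96 and 97. Red cell markers stayed at or below 3.01 CPM. Pancreatic acinar genes summed to 19.98 CPM in LIP 93 and 4.41 CPM in LIP 94 on day 0, and to at most 0.689 CPM in the other day 0 libraries. On day 2 they summed to 9.51, 10.3 and 5.11 CPM in CTL 92, 93 and 97 and to 3.58, 6.27 and 3.76 CPM in LIP 90, 96 and 97, most of it from the trypsinogen gene Prss2. LIP 90 differed from LIP 96 and LIP 97 by a mean chi-square of 48.4 and 38.6 per gene, against 2.99 to 13.1 for all other pairs of replicates, so results on day 2 are also given without it.

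In freshly isolated cells the 34 genes together took 931 ± 18.6 CPM in the CTL group (mean ± SD, n = 3), and a few genes carried most of it. Atm alone held 27.7% of the sum, followed by Atr with 11.5% and Msh6, whose protein recognises single mismatches, with 9.49%. Since a longer transcript yields more reads, levels were also divided by the length of the canonical transcript in kilobases (kb). On that scale Atm and Msh6 were highest in the CTL group on day 0, at 20.5 ± 1.28 and 20.5 ± 0.864 CPM per kb, and did not differ beyond their spread. Rad52, Rad50, Atr and Msh3 followed between 10.3 and 13.01 CPM per kb. At the other end stood Fanca, Exo1, Rad51b, Chek1, Rad54b and Fancd2, with 0.200 to 0.436 CPM per kb, neighbours that overlapped in their spread. The kinases thus lay at both ends of the order, with Atm and Atr among the 5 highest genes and Chek1 and Chek2 among the 7 lowest. This order rests on the canonical transcripts, 8688 bases long for Chek1 and 2316 for Chek2. The annotation used for counting is not given in the sources used here.

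**Figure D1:**
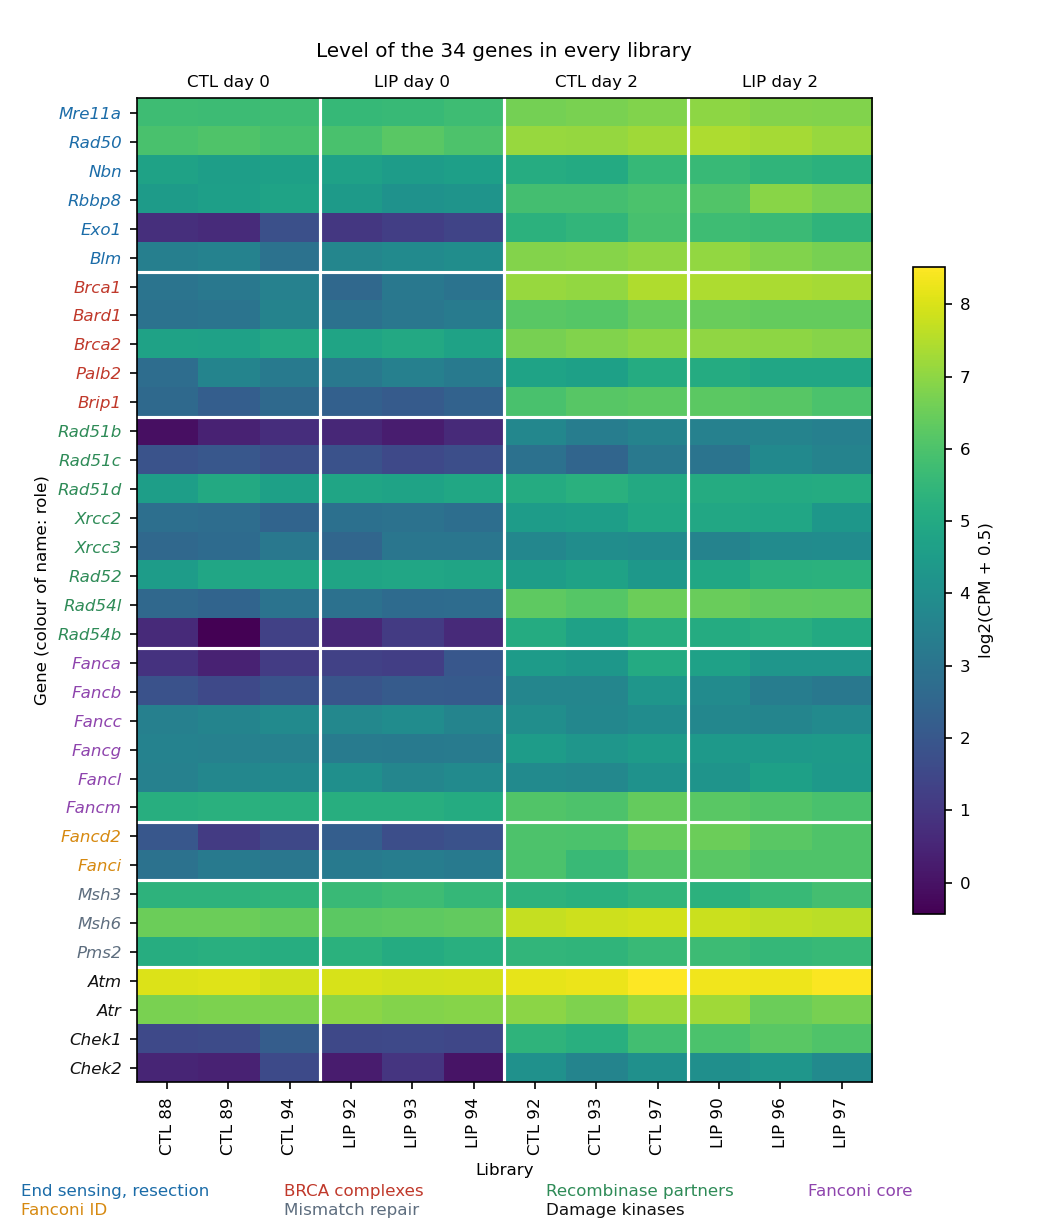
Level of each of the 34 genes (rows, grouped by role) in each of the 12 libraries (columns), coloured by log2(CPM + 0.5). Exo1, Rad51b, Rad54b, Fanca, Fancd2, Chek1 and Chek2 are dark on day 0 and brighter in every day 2 library, while Atm, Atr, Msh3 and Rad52 keep much the same colour on both days.

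Between day 0 and day 2 most of the genes rose in both groups. In the CTL group 29 of the 34 genes were higher on day 2 and 0 were lower at an adjusted p under 0.05 (edgeR's quasi-likelihood test on all 12 libraries). Over all 15475 genes the shares were 35.3% and 33.7%. For the LIP group the counts were 30 and 0 of the 34 genes, against 36.6% and 35.2% of all genes. Under upper-quartile scaling 26 were higher and 1 lower in CTL and 26 and 2 in LIP, and under scaling by library size alone 26 and 1 and 26 and 3. Of all genes 71.6% in CTL and 73.5% in LIP were called under upper-quartile scaling, and 70.4% and 73.8% under library size alone. The median log2 fold change of the 34 genes was 1.49 in CTL and 1.82 in LIP, beside −0.02 and −0.003 over all genes. A log2 fold change above 3 was reached by 12 of the 34 genes in each group, and by 5.36% of all genes in CTL and 4.90% in LIP. Rad51b, Rad54b and Chek2 passed the filter on low counts only through day 2 and had to be higher there. Among the 31 genes that passed it on day 0, 26 rose in CTL, 9 of them above 3, and the median was 1.29. In LIP 27 of the 31 rose, 9 of them above 3, with a median of 1.56. The summed level went from 931 to 2284 ± 230.4 CPM in CTL and from 934 ± 1.97 to 2427 ± 99.0 CPM in LIP. Over the same days 13 proliferation markers, among them Top2a and Cdk1, went from 324 to 527 CPM to 5237 to 6811 CPM in sum, and how far the repair genes follow the share of dividing cells was not tested. In these bulk samples more cells that express a gene and more RNA of it per cell cannot be told apart. CPM is a share of the RNA read, so a change in the total RNA of a cell is not seen.

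Genes of end resection rose in all 6 cases in CTL, by widely different amounts. Exo1, a nuclease that widens single-stranded gaps in recombination and mismatch repair, stood at 1.21, 1.08 and 2.89 CPM in CTL 88, 89 and 94 and at 39.5, 43.6 and 59.3 CPM in CTL 92, 93 and 97. In the LIP group it went from 1.52, 1.83 and 2.14 CPM to 53.0, 50.3 and 41.2 CPM. The day 0 and day 2 values lay far apart in both groups, with a log2 fold change of 4.77 ± 0.27 in CTL and 4.71 ± 0.27 in LIP (± SE). Blm, the helicase that is mutated in Bloom syndrome, rose by 3.66 ± 0.16 in CTL. Mre11a, Rad50 and Nbn, which form the end-binding complex and were already expressed on day 0, rose by 1.02, 1.19 and 0.61. Rbbp8, which encodes CtIP, rose by 1.29 ± 0.18 in CTL and by 2.38 ± 0.18 in LIP.

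All 5 genes of the BRCA complexes rose in both groups. Brca1 went from 7.53, 8.31 and 10.9 CPM in CTL 88, 89 and 94 to 140.2, 134 and 173 CPM in CTL 92, 93 and 97, a log2 fold change of 4.06 ± 0.17. On the scale per kb this took it from 1.34 ± 0.266 to 22.4 ± 3.15 CPM per kb, among the 5 highest of the 34 genes on day 2. Its partner Bard1 rose by 3.13 ± 0.16 and the helicase gene Brip1 by 3.76 ± 0.15. Brca2, at 27.4 ± 3.11 CPM the best expressed of the complex on day 0 before correction for length, rose by 2.06 ± 0.12, and Palb2, which joins BRCA1 to BRCA2, by 1.63 ± 0.19.

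The partners of the recombinase spanned a wide range, with log2 fold changes from −0.23 to 4.84 in CTL and from 0.23 to 4.75 in LIP. Rad54b, a DNA translocase, had 1.06, 0.241 and 1.97 CPM in CTL 88, 89 and 94, from 7, 2 and 15 counts, and 33.2, 25.2 and 34.4 CPM in CTL 92, 93 and 97. Its log2 fold change of 4.84 ± 0.33 was, with that of Fancd2, the largest of the 34 in CTL, and LIP gave 4.75 ± 0.32. Rad54b and Rad51b passed the filter on low counts only through day 2 and had to be higher there. Among the 31 genes that passed it on day 0, Fancd2 rose most in CTL. Rad54l rose by 3.74 ± 0.16 and the paralogue Rad51b by 3.71 ± 0.27, but Rad51c, Xrcc3 and Rad51d rose by only 1.11, 1.07 and 0.35. The rise of Rad51d passed the test in CTL (edgeR's adjusted p = 0.0235) and not in LIP, where its log2 fold change was 0.23 ± 0.13. The call in CTL was lost under upper-quartile scaling and library size alone, with at least 10 counts in every library (adjusted p = 0.0511), with the CTL libraries alone (adjusted p = 0.0505) and without CTL 88, 94 or 93 (0.29, 0.33 and 0.29). The difference of the Rad51d responses, −0.12 ± 0.18, did not pass the test. Rad52, a mediator of strand annealing, was at 22.3, 28.3 and 29.2 CPM in CTL 88, 89 and 94 and at 22.7, 25.7 and 19.7 CPM in CTL 92, 93 and 97. These values overlapped between the days, and its log2 fold change of −0.23 ± 0.14 did not pass the test in CTL, while in LIP it rose by 0.34 ± 0.14 (edgeR's adjusted p = 0.0437). The call in LIP was lost in 8 alternatives, and the sign turned to −0.02 under scaling by library size alone. The difference of the Rad52 responses, 0.57 ± 0.20, did not pass the test either.

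In the Fanconi pathway the pair that receives ubiquitin rose more than most of its core complex. Fancd2 went from 3.47, 1.69 and 2.37 CPM in CTL 88, 89 and 94 to 64.2, 62.3 and 85.7 CPM in CTL 92, 93 and 97. All day 2 values lay far above the highest day 0 value, and the log2 fold change was 4.84 ± 0.24 in CTL and 4.51 ± 0.23 in LIP. Fanci rose by 2.87 ± 0.15 in both groups. Of the 6 core genes, Fanca rose by 4.22 ± 0.32, from 1.36, 0.843 and 1.71 CPM to 21.7, 19.1 and 32.4 CPM in CTL, and Fancb by 2.35 ± 0.26. Fancm, the translocase that anchors the core to DNA, and Fancg rose by 0.98 and 0.95. Fancl, the ubiquitin ligase itself, and Fancc had log2 fold changes of 0.25 ± 0.17 and 0.23 ± 0.15 in CTL that did not pass the test. In LIP Fancl rose by 0.58 ± 0.16 (edgeR's adjusted p = 0.00549), and Fancc had −0.02 ± 0.15. The difference of the Fancl responses, 0.33 ± 0.23, did not pass the test. For Fancc the values were 10.6, 11.6 and 14.1 CPM on day 0 and 15.2, 12.7 and 14.7 CPM on day 2, which overlapped.

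Mismatch repair genes and the kinases split as well. Msh6 rose by 1.35 ± 0.09 in CTL, from 88.4 ± 3.72 to 226 ± 14.3 CPM (n = 3 each), and at 52.3 ± 3.31 CPM per kb it was the highest of the 34 genes on day 2. Msh3, whose protein recognises longer loops, stood at 40.1, 40.3 and 42.5 CPM in CTL 88, 89 and 94 and at 39.95, 37.4 and 43.4 CPM in CTL 92, 93 and 97. Its log2 fold change was −0.03 ± 0.13 in CTL and −0.02 ± 0.13 in LIP. Pms2, of the endonuclease complex, rose by 0.33 ± 0.10. Chek1, the kinase that ATR activates at stalled forks, rose by 3.86 ± 0.21 and Chek2, the corresponding target of ATM, by 3.36 ± 0.34. Chek2 had passed the filter on low counts only through day 2 and had to be higher there. Atm itself rose by 0.31 ± 0.10, and Atr, at 104, 108 and 108 CPM in CTL 88, 89 and 94 and 125, 110.4 and 143 CPM in CTL 92, 93 and 97, had 0.24 ± 0.15, which did not pass the test. The small rises are those that depend on scaling. Upper-quartile scaling moved the median over all genes to −0.31 in CTL and −0.32 in LIP, and scaling by library size alone to −0.21 and −0.36. Under either of them the rises of Atm and Pms2 no longer passed the test in either group, and those of Rad51d in CTL and Fancl in LIP were lost, while Rad52 in CTL (−0.52 and −0.42) and Msh3 and Atr in LIP passed it as lower, as did Fancc in LIP under library size alone. Single libraries also decided some of these calls. The rise of Atm in CTL was lost without CTL 97 (0.21 ± 0.10), and without LIP 90 Atr passed the test as higher in CTL (0.25 ± 0.09) and lower in LIP (−0.29 ± 0.11).

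**Figure D2:**
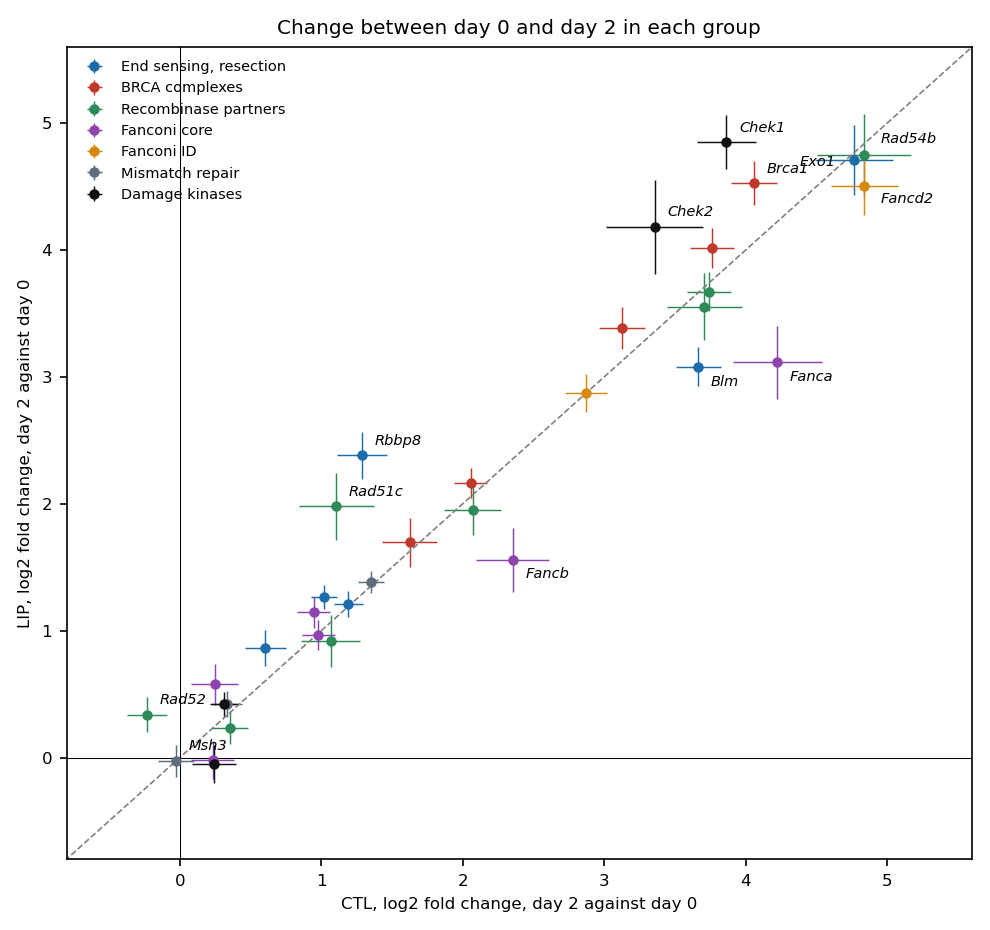
Log2 fold change between day 0 and day 2 in the CTL group (x axis) and in the LIP group (y axis) for the 34 genes, coloured by role, with SE bars and a dashed line of equality. The points follow the line from Msh3, near 0 in both groups, to Rad54b, Exo1 and Fancd2 above 4, with Rbbp8, Rad51c, Rad52 and Chek1 above it and Fanca, Fancb and Blm below it.

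To show the DNA in front of these genes, windows from 250 bases before to 50 bases after each start were taken from RefSeq (GRCm38.p6), which matched 26 of the 34 genes. Rbbp8, Rad50, Nbn, Exo1, Rad51d, Xrcc2, Rad54b and Fancd2 had no entry. E2F proteins are transcription factors that switch on genes needed for entry into S phase, and 4 forms of their usual site were searched on both strands, TTTCCCGC, TTTCGCGC, TTTGCCGC and TTTGGCGC. At least 1 of them lay in 7 of the 26 genes (26.9%), namely Bard1, Brca2, Rad51c, Fancg, Msh3, Msh6 and Chek2, against 2.60% of 27025 genes with such windows and 4.80% of the 9946 of them that were tested. The median log2 fold change in CTL was 1.35 for the 7 genes with a match and 1.63 for the 19 without. Over all genes tested the medians were 0.49 with a match and 0.14 without. The letters CCAAT, bound by the factor NF-Y, lay in 16 of the 26 (61.5%) against 43.1% of the genes tested, and the CHR letters TTTGAA of late cell cycle genes in 2 of the 26 (7.70%) against 1488 of the 9946. Here the medians in CTL were 1.99 with CCAAT and 1.03 without, and 3.42 for the 2 genes with the CHR letters and 1.23 without, beside 0.20 and 0.12 and 0.16 and 0.15 over all genes tested. Rad51b, with the CHR letters and CCAAT, and Chek2, with E2F letters and CCAAT, passed the filter on low counts only through day 2. They had to be higher there, so the medians that hold them are in part set by the filter. The other gene with the CHR letters is Bard1, at 3.13. Among these genes 0 E2F matches overlap a CHR or CCAAT match. Matches are letters in a window and not shown to be bound.

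The 250 bases before the start of 4 genes are printed. Bard1 and Chek2 rose with a match, Chek1 rose without one, and Msh3 did not pass the test although it has a match. Chek2 passed the filter on low counts only through day 2 and had to be higher there. Each piece is written 5′ to 3′ along the gene's own strand, with E2F letters in capitals. In Msh3 the 2 matches overlap and lie on opposite strands, and in Chek2 the match lies on the opposite strand. They are Bard1 at chr1:71102973-71103222, minus strand, Chek2 at chr5:110839733-110839982, plus strand, Chek1 at chr9:36726659-36726908, minus strand, and Msh3 at chr13:92355004-92355253, minus strand, all in GRCm38.p6.
Bard1: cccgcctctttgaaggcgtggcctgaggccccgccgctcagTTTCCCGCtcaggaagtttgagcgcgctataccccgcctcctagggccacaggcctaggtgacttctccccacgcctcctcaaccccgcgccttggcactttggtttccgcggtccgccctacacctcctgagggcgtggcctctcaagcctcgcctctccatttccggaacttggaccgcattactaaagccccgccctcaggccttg
Chek2: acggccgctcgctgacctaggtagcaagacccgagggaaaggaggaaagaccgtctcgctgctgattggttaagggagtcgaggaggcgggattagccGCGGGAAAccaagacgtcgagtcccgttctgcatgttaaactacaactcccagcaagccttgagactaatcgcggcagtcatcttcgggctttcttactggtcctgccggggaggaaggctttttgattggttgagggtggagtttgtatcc
Chek1: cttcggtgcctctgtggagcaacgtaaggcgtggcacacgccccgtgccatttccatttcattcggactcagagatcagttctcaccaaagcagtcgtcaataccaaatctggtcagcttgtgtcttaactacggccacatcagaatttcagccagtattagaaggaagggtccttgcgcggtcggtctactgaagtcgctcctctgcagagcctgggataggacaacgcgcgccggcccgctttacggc
Msh3: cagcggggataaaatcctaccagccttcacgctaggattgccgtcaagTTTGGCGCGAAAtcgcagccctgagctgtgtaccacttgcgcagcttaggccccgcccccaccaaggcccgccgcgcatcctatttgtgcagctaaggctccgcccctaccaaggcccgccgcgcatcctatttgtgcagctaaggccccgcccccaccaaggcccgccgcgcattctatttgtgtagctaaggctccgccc

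On day 0 no repair gene passed the test between the LIP and CTL groups at an adjusted p under 0.05. Of the 34 genes all but Rad51b, Rad54b and Chek2 passed the filter on low counts. Among these 31 genes 0 were called in the 6 libraries of that day by edgeR, where 60 of 14064 genes (0.427%) were. The count was also 0 with DESeq2 (1.46% of all genes), which gave no adjusted p for 19 of them, without a filter on low counts (2.52%) and in a fit of all 12 libraries (0.0775%). At an unadjusted p under 0.05 there were 6, Fanca, Blm, Msh3 and Atr higher and Rbbp8 and Msh6 lower in LIP, or 19.4% of 31 against a background of 13.9%. Log2 fold changes ran from −0.36 to 0.90 with a median of 0.06 (0.01 over all genes), and the lowest adjusted p was 0.216. The median turned to −0.02 without CTL 88 and without CTL 89. Under library size alone it was 0.13 (0.08 over all genes). In sum the genes took 931 ± 18.6 CPM in CTL and 934 ± 1.97 CPM in LIP, a difference of 2.41 CPM (exact permutation test, two-sided, p = 0.80, where 0.1 is the smallest p that 3 against 3 libraries allow). The sign of that difference turned under RLE scaling and without CTL 88, while scaling by library size alone gave 55.5 CPM (p = 0.10 in the same exact test).

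The largest difference on day 0 was that of Fanca, at 1.36, 0.843 and 1.71 CPM in CTL 88, 89 and 94 and 1.93, 1.83 and 3.47 CPM in LIP 92, 93 and 94. The 2 groups did not overlap, but the values rest on 7 to 26 counts per library and LIP 94 stood above the other two, and the log2 fold change was 0.90 ± 0.40. Exons of Zfp276 on the opposite strand cover 43.7% of the Fanca exons, and Zfp276 itself differed by −0.04 ± 0.10. For Blm the values were 10.3, 11.2 and 7.24 CPM in CTL and 12.4, 13.8 and 14.96 CPM in LIP, which also lay apart, with a log2 fold change of 0.53 ± 0.18. Fancd2 was at 3.47, 1.69 and 2.37 CPM in CTL and 4.27, 2.81 and 3.07 CPM in LIP, values that overlapped (0.46 ± 0.33). Fancb was at 3.01, 2.41 and 3.03 CPM in CTL and 3.31, 3.94 and 3.74 CPM in LIP, apart by 0.39 ± 0.26 in log2. Errors were smaller for the better expressed Msh3, with 41.0 ± 1.33 CPM in CTL and 49.2 ± 3.75 CPM in LIP (0.27 ± 0.09), and for Msh6, with 88.4 ± 3.72 and 78.2 ± 2.77 CPM (−0.17 ± 0.07). In all, 9 genes had groups that did not overlap on day 0, of which Blm, Fanca, Fancb, Msh3 and Atr lay higher and Rbbp8, Fancg, Msh6 and Chek1 lower in LIP. Of all genes tested 19.1% had groups apart. Chek1 was at 2.41, 2.53 and 4.08 CPM in CTL and 2.34, 2.39 and 2.27 CPM in LIP, with CTL 94 well above the rest. The sum of the proliferation markers was also highest of day 0 in CTL 94, at 527 CPM, and their part was not tested.

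**Figure D3:**
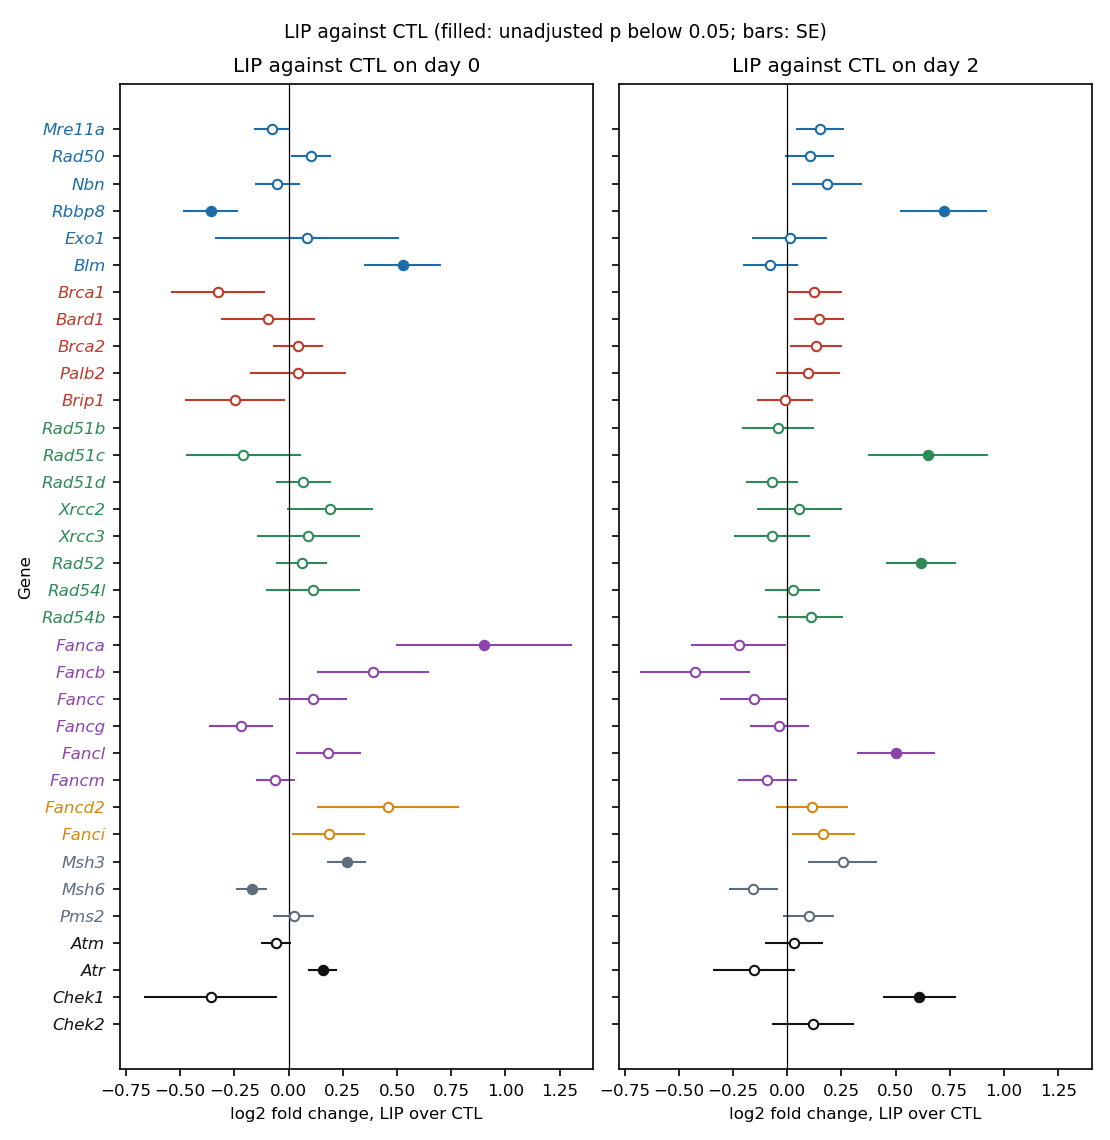
Log2 fold change of LIP over CTL for each gene, with day 0 in the left panel and day 2 in the right, coloured by role, with SE bars, filled where the unadjusted p was below 0.05. On day 0 the filled points lie on both sides of 0, and on day 2 all 5, Rbbp8, Rad51c, Rad52, Fancl and Chek1, lie between 0.50 and 0.72.

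On day 2 again 0 of the 34 genes were called (lowest edgeR adjusted p = 0.150), and 0 of all 14041 genes (0%). At an unadjusted p under 0.05 there were 5, or 14.7% against 16.5% of all genes, and all of them were higher in LIP. They were Rbbp8, Rad51c, Rad52, Chek1 and Fancl. Log2 fold changes ran from −0.43 to 0.72 with a median of 0.10 (−0.01 over all genes). Without 1 library the median ran from 0.01, without CTL 93, to 0.19, without CTL 97. Under library size alone it was 0.01 (−0.09 over all genes). The sum was 2284 ± 230.4 CPM in CTL and 2427 ± 99.0 CPM in LIP, a difference of 143 CPM (exact permutation test, two-sided, p = 0.40), which turned to −14.8 CPM under scaling by library size alone. It was 89.9 CPM without LIP 90, 81.2, 71.5 and 276 CPM without CTL 92, 93 or 97, and 91.2 CPM under upper-quartile scaling. Rbbp8, Rad52, Fancl and Chek1, 4 of the 34 genes, had groups that did not overlap, all higher in LIP, against 21.5% of the genes tested.

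Rbbp8 stood at 57.3, 56.4 and 62.3 CPM in CTL 92, 93 and 97 and at 67.7, 119.9 and 104.6 CPM in LIP 90, 96 and 97. LIP 90 lay just above the controls and the other LIP libraries well above them, and the log2 fold change was 0.72 ± 0.20. Rad51c was at 6.98, 5.14 and 8.52 CPM in CTL and 7.61, 13.7 and 11.4 CPM in LIP, where LIP 90 fell within the controls (0.65 ± 0.28). Rad52 was at 22.7, 25.7 and 19.7 CPM in CTL and 29.7, 37.4 and 38.2 CPM in LIP, apart by 0.62 ± 0.16. Chek1 was at 40.9, 36.6 and 54.9 CPM in CTL and 62.4, 74.9 and 66.1 CPM in LIP, with CTL 97 nearest to the LIP group (0.61 ± 0.17). Fancl was at 14.1, 12.9 and 16.9 CPM in CTL and 17.8, 24.5 and 20.2 CPM in LIP (0.50 ± 0.18). Exons on the opposite strand cover 74.8% of the Fancl exons, those of Vrk2 31.7% and those of the lncRNA gene 6820445E23Rik the rest, and Vrk2 differed by 0.25 ± 0.15. Exons of lncRNA genes on the opposite strand also cover 14.5% of the Rad52 exons and 9.43% of the Rbbp8 exons.

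LIP 90 had the lowest LIP value for all 5 of these genes. Without it 5 of the 34 genes were called on day 2, the same 5, with Rbbp8 at 0.95 ± 0.11, Rad51c at 0.88 ± 0.24, Rad52 at 0.75 ± 0.14, Chek1 at 0.69 ± 0.17 and Fancl at 0.63 ± 0.17, but then 13.9% of all genes were called too. That share is close to the 14.7% of the 34 genes. With all libraries kept, Rbbp8, Rad52 and Chek1 were called by DESeq2 (adjusted p = 0.0308, 0.0483 and 0.0399), without a filter on low counts, and in a fit of all 12 libraries. Those 3 are 8.82% of the 34 genes, against 3.48%, 2.57% and 5.01% of all genes in the same 3 fits. Markers of B, CD8 and NK cells moved with the same libraries, being highest of day 2 in LIP 96 and LIP 97 in the sums given above. Pax5, a defining factor of B cells, was at 0, 0.119 and 3.97 CPM in CTL 92, 93 and 97 and at 0, 8.43 and 8.81 CPM in LIP 90, 96 and 97, and the part of these markers in the results on day 2 was not tested. CTL 97, with 23.1 CPM of B cell markers, had the highest CTL value on day 2 for 27 of the 34 genes, among them Rbbp8, Rad51c, Chek1 and Fancl, and the lowest for Rad52. In sum the 34 genes stood at 2550 CPM there against 2161 and 2142 CPM in CTL 92 and 93, and the proliferation markers at 6559 against 5237 and 5581 CPM.

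**Figure D4:**
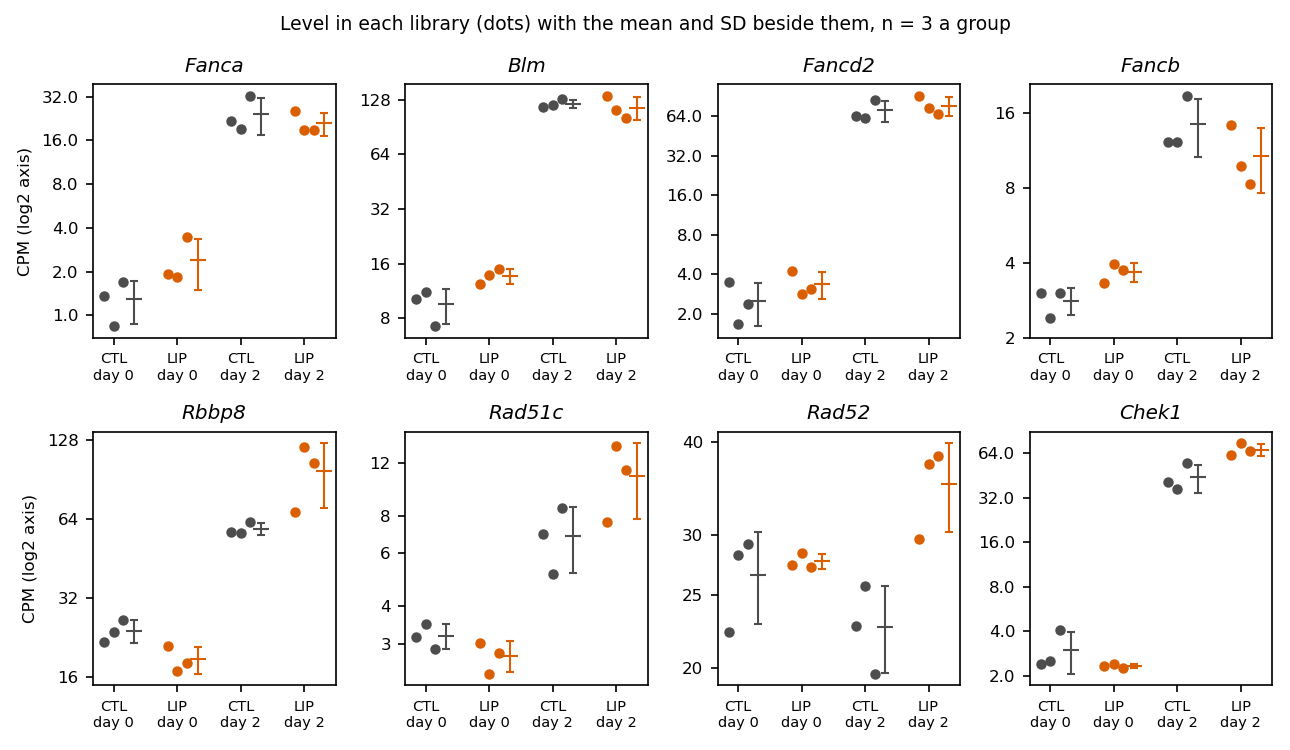
Level in each library, in CPM on a log2 axis, of the 4 genes with the largest LIP difference on day 0 (upper row) and on day 2 (lower row), with the mean and SD of each group (n = 3) beside the dots. In the lower row LIP 90, the first LIP dot on day 2, is the lowest of its group for each gene.

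The change between the days was compared between LIP and CTL in 1 model of all 12 libraries. Of the 34 genes 0 differed at an adjusted p under 0.05 (8 of 15475, or 0.0517%, of all genes), and 7 did at an unadjusted p under 0.05, or 20.6% against 15.9%. Rbbp8 came nearest, with a change larger by 1.09 ± 0.25 on the log2 scale in LIP (edgeR's adjusted p = 0.0871), and was the 1 gene called by DESeq2 (adjusted p = 0.00754) and without a filter, where 3.43% and 2.89% of all genes were called. On day 0 it stood at 21.7, 23.8 and 26.4 CPM in CTL 88, 89 and 94 and at 21.1, 16.9 and 18.04 CPM in LIP 92, 93 and 94, below the controls by −0.36 ± 0.13. Chek1, Rad51c and Rad52 had larger changes in LIP, by 0.99 ± 0.32, 0.87 ± 0.38 and 0.57 ± 0.20. Fanca, Fancb and Blm had smaller ones, by −1.11 ± 0.46, −0.79 ± 0.37 and −0.58 ± 0.22. These differences combine the comparisons of day 0 and day 2 above and are no further evidence for them. Without LIP 90, 4 of the 34 genes differed, Rbbp8 and Rad52 with larger and Blm and Atr with smaller changes in LIP, against 10.1% of all genes. Across the 34 genes the 2 responses had Pearson's r = 0.960 and Spearman's rho = 0.957, as a description over genes that share libraries within each group, with 19 changes larger in LIP and 15 larger in CTL.

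Other genes of the same pathways behaved in the same way in part. Of 32 further genes of homologous recombination 20 were higher and 4 lower on day 2 in CTL, with a median log2 fold change of 0.78. Rad51ap1, Zswim7, Hrob and Mnd1 passed the filter on low counts only through day 2 and had to be higher there, and among the other 28 genes 16 were higher and 4 lower, with a median of 0.39. Over all genes 35.3% were higher and 33.7% lower, with a median of −0.02, which is the background for the Fanconi and mismatch repair lists too. Rad51ap1, which binds the recombinase, went from 0.966 ± 0.924 to 29.6 ± 5.63 CPM (n = 3 each), and the helicase cofactor gene Hrob from 0.174 ± 0.0583 to 18.9 ± 3.26 CPM and Mnd1 from 0.0877 ± 0.152 to 4.27 ± 0.421 CPM. Hrob and Mnd1 had at most 2 counts in a CTL library on day 0, so no fold change is given. The nuclease genes Eme2 and Slx1b fell by 1.19 ± 0.18 and 1.13 ± 0.21 on the log2 scale, and Mcm9 by 0.64 ± 0.11. Of 16 other Fanconi pathway genes 11 were higher and 3 lower. Among them Rfwd3, a ubiquitin ligase, Usp1, which removes ubiquitin from FANCD2, and Mad2l2 rose by 1.87 ± 0.13, 1.70 ± 0.12 and 1.53 ± 0.15, while Ercc4, which encodes the XPF nuclease, Rev3l, the catalytic subunit of polymerase zeta, and Faap100 fell by 0.80 ± 0.12, 0.74 ± 0.10 and 0.48 ± 0.13. Of 13 other genes of mismatch repair 12 were higher, led by the ligase gene Lig1 and the clamp loader genes Rfc4 and Rfc3 with 3.49 ± 0.15, 3.09 ± 0.22 and 2.89 ± 0.15. Most of this list, Pcna, Lig1 and the Rfc and Pold genes, also serves DNA replication. The others, Pms1 and Mlh3, moved in opposite directions, by 0.54 ± 0.12 and −0.64 ± 0.13. Between LIP and CTL 0 genes of these lists were called on either day or in the comparison of the responses. At an unadjusted p under 0.05 there were 0, 2 and 1 on day 0 and 1, 3 and 2 on day 2 in the lists of recombination, Fanconi and mismatch repair genes, against 13.9% and 16.5% of all genes.

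Parts of several genes are shared with a neighbour on the other strand. For example, exons of Klc1 cover 76.6% of the Xrcc3 exons and those of Lrrc41 27.2% of the Rad54l exons. From day 0 to day 2 in CTL, Klc1 and Lrrc41 rose by 0.76 ± 0.13 and 1.17 ± 0.12, against 1.07 ± 0.21 for Xrcc3 and 3.74 ± 0.16 for Rad54l. Zfp276 fell by 1.13 ± 0.12 where Fanca rose, and Vrk2 fell by 0.44 ± 0.12. The libraries were made with a directional kit, but whether strand was used in counting is not given in the sources used here, so that reads of these neighbours may not be fully told apart.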

How the data were processed

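Splenic CD4+ T cell RNA was rRNA-depleted and made into directional libraries, read paired-end. The authors trimmed the reads with Trimmomatic (0.38 per the labels' processing notes) after FastQC 0.11.9, aligned them to GRCm39 with HISAT2 and, from RSEM 1.3.0 run on Bowtie2, deposited gene-level expected counts that carry no normalization. The annotation release is not given in the sources used here. Gene symbols, which are neither a score nor a measurement, came from the deposited tables of each day, whose fold changes, p-values and normalized values of the authors were not used. In the file for day 2, columns of 2 libraries belong to the LIP group but to none of the labelled samples and were not used.

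After rounding of the expected counts to integers, edgeR 4.0.16 under R 4.3.3 was used (filterByExpr, TMM, quasi-likelihood F test, Benjamini-Hochberg adjustment over all genes tested). LIP was compared with CTL in the 6 libraries of each day, and days and the difference of responses in all 12 libraries. CPM used effective library sizes of the 12 libraries. Transcript length and exon overlap came from GENCODE M39 (GRCm39). Symbol Pms2 pairs with 2 records, and the 1 that GENCODE calls Pms2 was used. Where a count is 0, 3 counts were taken as the limit, 0.233 to 0.480 CPM before TMM scaling, which covers counting error only. Alternatives were RLE, upper-quartile and library-size scaling, DESeq2 1.42.0, other filters, other sets of libraries and leaving out each library. Exact permutation tests were two-sided. The code was tested on simulated data. The labels number the samples of a group without saying that each is a separate animal, and p-values measure the spread between these samples, which may in part be technical.

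The 34 genes and the lists of further genes were chosen with earlier results of these data known. Any of the 34 may be named. Values per library are given for the 4 largest differences of each comparison of LIP with CTL and for the 4 largest rises and 4 lowest changes in CTL between the days, and of the other lists the 3 largest rises and falls in CTL are named, where present. Brca1 and Fancl were added to the values per library after they were seen, as were Pax5 and the day 0 values of Chek1. Pms1 was also named after its value was seen. Figures were drawn with matplotlib 3.10.9 in Python 3.11.15.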

Additional observations from a re-analysis of the deposited data

How the results depend on the processing

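No paired analysis was possible because the groups compared share at most 1 sample number, 94 on day 0 and 97 on day 2, and nothing in the labels ties equal numbers to each other. The 29 and 30 of 34 genes called between the days in CTL and LIP ranged from 28 to 30 and from 29 to 31 (1 of these, Atr, lower) when 1 library was left out, and were 23 and 24 of the 29 genes with at least 10 counts in every library. With upper-quartile scaling 1 and 2 of the calls were lower, and with library size alone 1 and 3. Of all genes 63.2% to 71.2% were called in CTL and 64.6% to 71% in LIP when 1 library was left out. With at least 10 counts in every library the shares of all genes were 71.3% and 73.2%. The 0 genes called between LIP and CTL on day 0 stayed 0 in all fits without 1 library and with DESeq2, without a filter on low counts and in a fit of all 12 libraries, and 6 passed an unadjusted p under 0.05. The share of all genes called in the fits without 1 library ran from 0.0904%, without LIP 93, to 4.59%, without CTL 94. On day 2 the count of 0 became 3 with DESeq2, 3 without a filter on low counts, 3 in a fit of all 12 libraries and 5 at an unadjusted p under 0.05, and ranged from 0 to 5 without 1 library, the 5 being without LIP 90. For the difference of the responses it became 1 with DESeq2 and 1 without a filter, and ranged from 0 to 4, the 4 again without LIP 90. DESeq2 gave no adjusted p for 19 of the genes on day 0. The difference of the summed level on day 0, 2.41 CPM, was −4.57 CPM with RLE scaling and 55.5 CPM with library size alone, and ranged from −6.00, without CTL 88, to 12.4 CPM without 1 library. On day 2, 143 CPM became −14.8 CPM with library size alone and ranged from 71.5 to 276 CPM. The log2 fold change of Rad52 between the days in LIP, 0.34, was −0.021 with library size alone. The causes were not tested. Of 642 values of single genes between the days in CTL under an alternative 15 changed their call, and 20 of 642 in LIP, 0 of 402 and 14 of 443 between LIP and CTL on day 0 and day 2, and 6 of 608 for the difference of responses. Summing both records of Pms2, an alternative chosen after seeing the data, changed no call. Low counts limit day 0, where Exo1 and Fanca had the largest errors between LIP and CTL (SE 0.43 and 0.40) and Rad54b, Rad51b and Chek2 were not tested.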

Other observations

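Genes of neighbouring pathways in the same cells also moved between day 0 and day 2 in the CTL group. Of 18 further genes of the damage checkpoint 10 were higher and 3 lower at an adjusted p under 0.05 (edgeR), with a median log2 fold change of 0.82, where 35.3% of all genes were higher and 33.7% lower with a median of −0.02. Clspn, the adaptor through which ATR reaches CHEK1, H2ax, the histone that marks breaks, and Tipin, of the fork protection complex, rose by 4.14 ± 0.23, 3.54 ± 0.27 and 3.36 ± 0.16, while Atrip, the partner of ATR, Mdc1 and Rnf8, which act at marked chromatin, fell by 0.71 ± 0.12, 0.52 ± 0.15 and 0.43 ± 0.14. The mean level of Clspn was 7.44 ± 2.64 CPM on day 0 and 131 ± 23.3 CPM on day 2 (n = 3 each).

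Of 17 genes that join DNA ends without a template 8 were higher and 3 lower in CTL, with a median of 0.24, against the same shares of all genes. Polq, the polymerase of end joining by short homologies, went from 10.6 ± 0.588 to 86.2 ± 6.56 CPM (n = 3 each), a rise of 3.02 ± 0.11, and Parp1 and Poll rose by 1.08 ± 0.15 and 0.91 ± 0.14. Paxx, a partner of the Ku complex, Shld1, which limits resection, and Polm fell by 1.19 ± 0.20, 0.65 ± 0.25 and 0.54 ± 0.19. Between LIP and CTL 0 genes of both lists were called by edgeR on either day. At an unadjusted p under 0.05 there were 4 of 18 and 4 of 17 on day 0, where 13.9% of all genes were, and 3 and 0 on day 2, against 16.5%.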
